A study of Mus musculus with 21 samples.

Results

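The RNAi agent TTR-1186 at 0.2 µM was compared with PBS in wild-type primary mouse hepatocytes, with 3 libraries in each group. The 6 libraries were chosen by the agent and dose in their titles, from 21 libraries in 7 groups, and every one of the 9657 genes in the files entered the comparison. The study treated the cells with PBS or with 1 of 3 agents directed at Ttr (TTR-1236, TTR-1186 and Reference 4), each at 0.2 and 2 µM. All groups carried the WT genotype and were collected on Day 1, and their RNA was read by QuantSeq, a 3′ mRNA-seq method that counts transcripts near their polyadenylated ends. The labels do not give what distinguishes the agents in structure, how the cells took them up, or whether replicate libraries stem from different animals or culture wells. The p-values therefore measure the spread between replicate libraries, taken over all 21 libraries, and this spread may be technical.

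In RNA interference a short duplex is loaded into an Argonaute protein, and its guide strand directs the cleavage or decay of transcripts that it pairs with. Transthyretin, the product of Ttr, is a plasma carrier of thyroid hormone and, together with retinol-binding protein, of retinol, and the hepatocyte is its main source in blood. Hepatocytes also secrete albumin, fibrinogen, coagulation factors and acute phase proteins, many of which respond to IL-6 and other cytokines, and IGFBP-1, whose transcription is held down by insulin and raised in fasting through FOXO factors.

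Total reads over the genes in the files were 23089411, 17361422 and 18470744 in TTR-1186 replicates 1, 2 and 3, and 14324315, 19109736 and 26340870 in the PBS replicates. Values are CPM, read counts scaled to a common library total, and fold changes are differences of mean log2(CPM + 1), which understate the change of low genes. Hepatocyte transcripts were abundant, with Alb at a mean of 4288 CPM under TTR-1186 and 5182 CPM under PBS, and 43 of 46 genes of a hepatocyte list had measured values. Of other cell types, 3 of 17 Kupffer cell and macrophage markers, 4 of 16 endothelial, 8 of 18 stellate cell and fibroblast, 4 of 10 cholangiocyte, 1 of 7 erythroid and 0 of 16 lymphocyte and neutrophil markers had values. Clec4f and Adgre1 (Kupffer cells), Pecam1 (endothelium), Col1a1 and Pdgfrb (stellate cells) and Epcam (bile duct cells) were among those without values. Among those with values, Eng (endothelium) averaged 15.25 CPM under TTR-1186 and 22.2 CPM under PBS. Eng overlaps Fpgs, a gene on the other strand that also had values. Of the bile duct markers, Cldn4 averaged 91.7 CPM against 149 CPM, and Krt19 averaged 27.35 CPM against 15.05 CPM. In RNA from a whole culture, fewer cells of a type and less RNA per cell cannot be told apart.

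One library in each group stood apart from the rest. The first principal component of the 6 libraries held 43.4% of the variance, and TTR-1186 replicate 2 (35.85) and PBS replicate 3 (42.36) lay far from the other four, which scored between -31.14 and -11.96. Mitochondrial ribosomal RNA was low in the same libraries, at 1.49% of CPM in TTR-1186 replicate 2 against 3.73% and 3.12% in the others of its group, and at 0.797% in PBS replicate 3 against 3.26% and 2.70%. At least 2-fold, 438 genes were lower in both of these libraries than in the other libraries of their group, 13 were higher in both, and 16 went opposite ways. The groups separated along the second component (21.98% of the variance), where the TTR-1186 libraries scored between -25.17 and -10.3 and the PBS libraries between 4.08 and 30.31. For the members of the lists and of the naming rule, the log2 difference without these libraries stands beside the value where it moved by at least 0.2, as does the median of a list where it moved by at least 0.05.

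**Figure D1:**
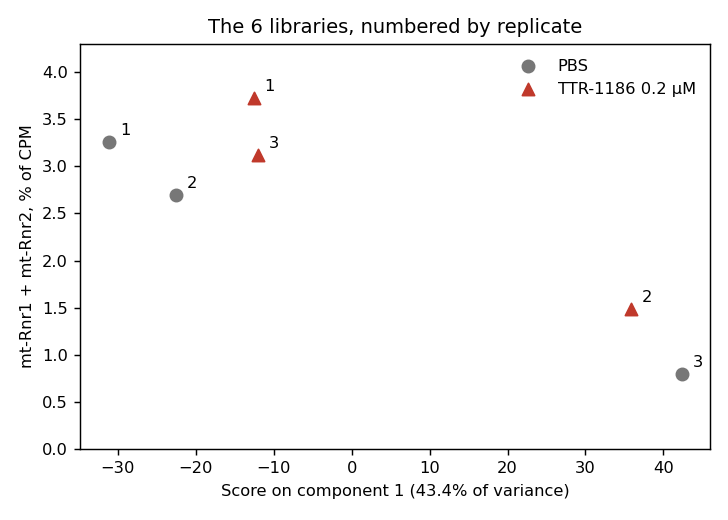
Each point is a library, numbered by replicate, placed by its score on the first principal component of the 6 libraries (x) and by the share of its CPM in mt-Rnr1 and mt-Rnr2 (y, percent). TTR-1186 replicate 2 and PBS replicate 3 sit together at the right, at 1.49% and 0.797%, and the other libraries sit at the left, at 2.70% to 3.73%.

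At an adjusted p of 0.05, 3 genes passed, and all 3 fell: Ttr, Igfbp1 and Fga. They are 0.0311% of the 9657 genes tested by limma with Benjamini-Hochberg adjustment. No gene rose by this test with all libraries (0%). At an unadjusted p under 0.05 there were 314 higher genes (3.25%) and 614 lower genes (6.36%). In edgeR's quasi-likelihood test with TMM factors 1 higher and 3 lower genes passed an adjusted p of 0.05, and in DESeq2 9 higher and 12 lower genes did. Without PBS replicate 3, which stood apart, limma called 41 genes, 22 higher and 19 lower, and without both libraries that stood apart it called 4, of which 1 was higher. The median log2 fold change of all genes was -0.05, with 4314 genes higher and 5343 lower.

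**Figure D2:**
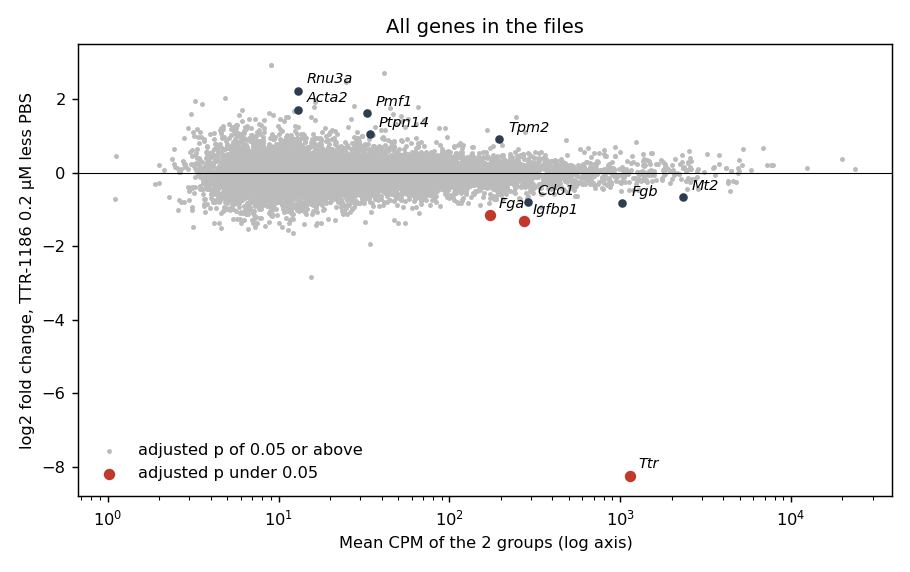
Each point is 1 of 9657 genes, with the mean CPM of the groups on a log axis (x) and the log2 fold change of TTR-1186 0.2 µM less PBS (y). Red points (Ttr, Igfbp1 and Fga) passed the adjusted p of 0.05, and the dark points are named genes that did not. Ttr lies alone at -8.24, and the spread of the other genes widens at low CPM.

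Ttr, the target (chromosome 18, 20665280 to 20674321, plus strand, GRCm38), was nearly gone. It stood at 8.45, 9.62 and 3.19 CPM in the TTR-1186 libraries and at 2272, 2168 and 2336 CPM in the PBS libraries. The TTR-1186 mean of 7.09 ± 3.42 CPM (SD, n = 3) was 0.314% of the PBS mean of 2258 ± 84.7 CPM (SD, n = 3). The log2 fold change was -8.24 (SE 0.42, 95% interval -9.11 to -7.37, adjusted p = 1.96e-11), and -8.46 without the libraries that stood apart. The remaining signal was 195, 167 and 59 reads, so replicate 3 was lower than the others by more than counting error: its exact Poisson interval was 2.43 to 4.12 CPM, against 7.3 to 9.72 and 8.22 to 11.2 CPM. These intervals cover counting error only. At 0.2 µM replicate 3 was also the lowest for Ttr under TTR-1236, at 5.25 CPM against 10.57 and 9.92 CPM. Under Reference 4 it stood at 4.99 CPM against 17.23 and 17.57 CPM. For TTR-1186 at 2 µM replicate 1 was the lowest, at 7.59 CPM beside 10.41 CPM in replicate 3. Under PBS replicate 3 was the highest.

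Igfbp1 encodes a hepatocyte-secreted protein that binds insulin-like growth factors. It was measured at 179.3, 179.7 and 111.5 CPM under TTR-1186 and at 430.0, 357.9 and 371.4 CPM under PBS. No TTR-1186 library reached the lowest PBS library, and replicate 3 was the lowest of all. The mean was 157 ± 39.2 CPM (SD, n = 3) against 386 ± 38.4 CPM (SD, n = 3), or 40.6% of PBS, with a log2 fold change of -1.32 (SE 0.18, -1.69 to -0.96, adjusted p = 5.88e-04).

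Fga encodes the alpha chain of fibrinogen, the clotting protein that hepatocytes assemble from 3 chains. It was measured at 120.4, 98.9 and 100.5 CPM under TTR-1186 and at 245.3, 242.6 and 223.8 CPM under PBS. The groups were far apart and each was tight. The mean was 107 ± 12.01 CPM (SD, n = 3) against 237 ± 11.7 CPM (SD, n = 3), or 44.9% of PBS, with a log2 fold change of -1.15 (SE 0.16, -1.49 to -0.81, adjusted p = 9.57e-04). Both calls were lost in limma when only the 6 libraries were fitted (adjusted p = 0.283 for Igfbp1 and 0.217 for Fga). The spread is then estimated from fewer libraries, including those that stood apart, and the cause was not tested. With each library left out in turn both passed, at adjusted p of 6.41e-04 to 0.0117 for Igfbp1 and 0.00195 to 0.0147 for Fga.

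The genes for the other fibrinogen chains lie beside Fga on chromosome 3 (GRCm38): Fgg at 83007724 to 83015049 on the plus strand, Fga at 83026076 to 83033627 on the plus strand and Fgb at 83040141 to 83049863 on the minus strand. Fgb, the beta chain, was measured at 862.5, 640.4 and 710.6 CPM under TTR-1186 and at 1448, 1463 and 1055 CPM under PBS, a log2 difference of -0.84 (-1.21 to -0.46, adjusted p = 0.123). Fgg, the gamma chain, was measured at 154.7, 188.5 and 127.1 CPM against 248.0, 251.8 and 259.3 CPM, a difference of -0.71 (-1.03 to -0.38, adjusted p = 0.127). For both, every TTR-1186 library lay below every PBS library, but neither passed the threshold over all genes. Fgb passed in DESeq2 (adjusted p = 0.0312) and, without PBS replicate 3, in limma (adjusted p = 0.0254, within 0.0254 to 0.386 over the libraries left out in turn). The next gene with values on the chromosome, Plrg1, a splicing factor gene, averaged 52.8 ± 16.0 CPM against 60.5 ± 7.26 CPM (SD, n = 3), a difference of -0.23 (adjusted p = 0.774). Beside Igfbp1 on chromosome 11 (7197782 to 7202546, plus strand), the neighbour with values was Adcy1, an adenylyl cyclase gene. Adcy1 averaged 7.17 ± 2.58 CPM against 12.6 ± 2.09 CPM (SD, n = 3), a difference of -0.77 (adjusted p = 0.527). Neighbours without values are not given.

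**Figure D3:**
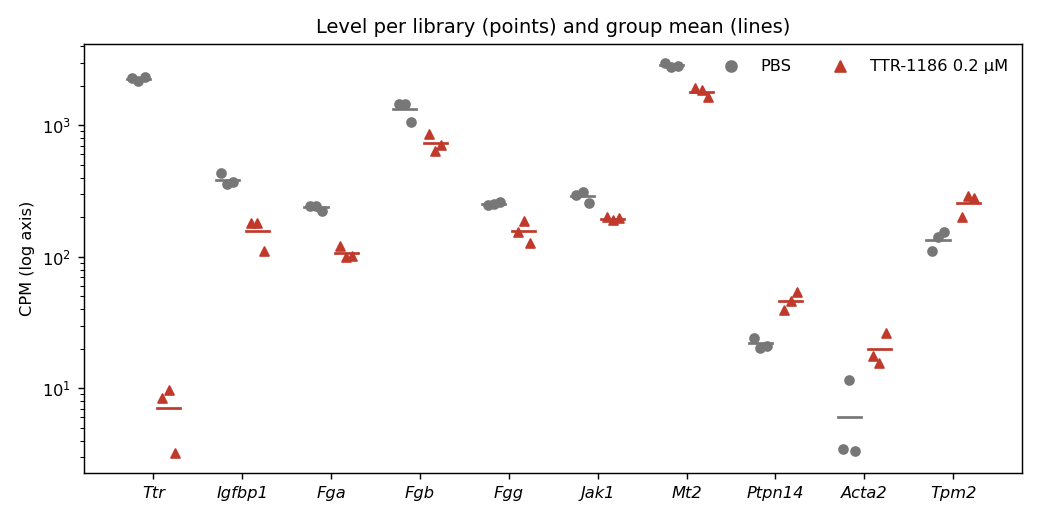
CPM on a log axis (y) in each library for 10 named genes (x), with grey circles for PBS, red triangles for TTR-1186 0.2 µM and lines for the means of 3 libraries. The groups do not overlap for any of these genes, which the naming rule required of Mt2, Ptpn14, Acta2 and Tpm2. Only Ttr, Igfbp1 and Fga passed the adjusted p of 0.05.

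The promoters of Igfbp1 and of the fibrinogen genes are shown because these are the genes beside Ttr that fell, with the neighbours of Fga in the same cluster. Each is 250 bases before to 50 bases after the RefSeq start site on GRCm38.p6, written along the gene's own strand: Igfbp1 at chr11:7197537-7197836 (plus), Fga at chr3:83025903-83026202 (plus), Fgb at chr3:83049814-83050113 (minus) and Fgg at chr3:83007474-83007773 (plus). Capitals mark matches on either strand to CAAAACA, the core of the insulin response element bound by FOXO factors, to GTTAAT, a half-site of the hepatocyte factor HNF1, and to CTGGGA, described in rat fibrinogen genes as an IL-6 response element.
Igfbp1: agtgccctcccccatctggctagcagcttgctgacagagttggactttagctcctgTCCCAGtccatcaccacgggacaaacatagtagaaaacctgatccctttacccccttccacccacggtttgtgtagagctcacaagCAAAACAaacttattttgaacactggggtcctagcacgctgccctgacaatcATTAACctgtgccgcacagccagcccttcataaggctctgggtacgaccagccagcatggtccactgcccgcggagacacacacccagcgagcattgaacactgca
Fga: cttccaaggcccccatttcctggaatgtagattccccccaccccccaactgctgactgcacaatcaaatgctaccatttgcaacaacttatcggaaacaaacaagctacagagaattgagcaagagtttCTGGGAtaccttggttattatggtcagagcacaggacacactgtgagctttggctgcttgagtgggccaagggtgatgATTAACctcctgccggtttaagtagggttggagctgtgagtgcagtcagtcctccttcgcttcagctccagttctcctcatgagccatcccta
Fgb: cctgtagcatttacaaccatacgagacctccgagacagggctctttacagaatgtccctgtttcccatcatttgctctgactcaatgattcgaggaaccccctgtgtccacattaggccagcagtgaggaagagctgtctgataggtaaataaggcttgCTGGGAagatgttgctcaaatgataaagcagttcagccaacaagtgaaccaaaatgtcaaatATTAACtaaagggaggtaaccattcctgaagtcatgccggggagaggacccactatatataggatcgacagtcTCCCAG
Fgg: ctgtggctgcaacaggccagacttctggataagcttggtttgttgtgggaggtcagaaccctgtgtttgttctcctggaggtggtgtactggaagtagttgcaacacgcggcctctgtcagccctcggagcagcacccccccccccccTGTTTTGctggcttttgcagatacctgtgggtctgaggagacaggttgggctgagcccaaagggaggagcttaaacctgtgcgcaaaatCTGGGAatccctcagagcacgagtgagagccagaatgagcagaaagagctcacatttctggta
Igfbp1 held CAAAACA at bases -108 to -102 from the start site, the reverse complement of GTTAAT at -56 to -51 and that of CTGGGA at -194 to -189. Fga held CTGGGA at -121 to -116 and the reverse complement of GTTAAT at -43 to -38. Fgb held CTGGGA at -91 to -86, its reverse complement at 44 to 49, and the reverse complement of GTTAAT at -29 to -24. Fgg held CTGGGA at -13 to -8 and the reverse complement of CAAAACA at -102 to -96. No 2 matches overlapped. Of 32817 RefSeq mouse promoters of the same length, 6.29% held CAAAACA, 7.1% GTTAAT and 31.8% CTGGGA on either strand. The matches describe the sequences and do not show binding in these cells.

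Beyond the called genes, 379 genes (3.92%) lay above every PBS library in all 3 TTR-1186 libraries and 927 (9.6%) lay below. Those with the smallest p are given as values, since none passed the threshold in limma. Of these 12 higher and 12 lower genes, 8 and 8 passed in DESeq2, and 3 and 3 passed in limma with a minimum mean of 10 CPM (Rnu3a, Ptpn14 and Pmf1, and Cdo1, Slc35d1 and Piezo1). Among the higher ones Ptpn14, a cytoplasmic tyrosine phosphatase gene, was at 39.1, 46.0 and 54.1 CPM under TTR-1186 and at 24.2, 20.4 and 21.1 CPM under PBS. Its log2 difference was 1.04 (0.62 to 1.46, adjusted p = 0.0503), and it passed in edgeR (adjusted p = 0.0253) but not in every fit with 1 library left out (0.0426 to 0.386). Rnu3a, a U3 small nucleolar RNA gene with near-identical copies, so that its assignment is uncertain, differed by 2.23 (adjusted p = 0.0503). Pmf1, a kinetochore gene, differed by 1.62 (adjusted p = 0.0601), with 46.6, 54.9 and 41.8 CPM against 10.8, 8.58 and 34.1 CPM. Its PBS replicate 3 was the high one, and without both of the libraries that stood apart its difference was 2.09 (adjusted p = 5.58e-04, within 4.34e-05 to 0.330 with 1 library left out in turn).

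Acta2, Acta1 and Tpm2, all on the higher side, encode parts of contractile filaments. Acta2, smooth muscle actin, was at 17.6, 15.5 and 26.4 CPM against 3.42, 11.5 and 3.34 CPM, a difference of 1.71 (0.89 to 2.53, adjusted p = 0.133, and 0.0377 in DESeq2). Acta1, skeletal muscle actin, averaged 48.4 ± 14.6 CPM against 23.2 ± 6.74 CPM (SD, n = 3), a difference of 1.02 (adjusted p = 0.173, and 0.0462 in DESeq2). Tpm2, beta-tropomyosin, was at 199, 292 and 282 CPM against 110, 141 and 153 CPM, a difference of 0.92 (adjusted p = 0.133, and 0.0233 in DESeq2). For each, the 3 treated libraries lay above all 3 PBS libraries, which the naming rule required. In the wider list of cytoskeletal and culture-response genes 23 of 47 measured members were higher and 24 lower, none passed, and the median was -0.01 (0.04 without the libraries that stood apart), with Vcl (vinculin, whose 3′ end overlaps Ap3m1) at -0.88 (adjusted p = 0.171) at the other end. Acta2 is also a marker of stellate cells: 6 of the 8 measured genes of that list were higher, with a median of 0.38 (0.61 without the libraries that stood apart), and their summed level was 303 to 306 CPM under TTR-1186 and 254 to 295 CPM under PBS. Its part in these values was not tested.

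The other higher genes of the naming rule were Tsc22d1 (0.57), a leucine zipper gene, Hexa (0.82), which encodes a lysosomal hexosaminidase, Ankrd23 (1.14), an ankyrin repeat gene whose 3′ end overlaps Gm42417, Crct1 (0.66), Hfe (1.25), which encodes a regulator of hepcidin, and Rpl6 (0.44), a ribosomal protein gene. Their adjusted p lay between 0.127 and 0.233, with Tsc22d1 (0.00373) and Rpl6 (0.0458) past the threshold in DESeq2. Tsc22d1 was at 275, 289 and 307 CPM against 189, 196 and 200 CPM.

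Of the lower genes, Cdo1, which encodes cysteine dioxygenase, the enzyme that begins cysteine breakdown, was at 216, 210 and 195 CPM against 471, 317 and 321 CPM. The difference was -0.81 (-1.14 to -0.48, adjusted p = 0.0503, and 0.016 in DESeq2). Slc35d1, a nucleotide sugar transporter gene of the endoplasmic reticulum, was at 81.4, 78.7 and 89.8 CPM against 175, 130 and 142 CPM, a difference of -0.82 (adjusted p = 0.0503, and 0.0166 in DESeq2). Neither pair of groups overlapped, which the naming rule required.

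Mt2, a zinc-binding metallothionein, was at 1930, 1852 and 1640 CPM against 2953, 2774 and 2840 CPM, a difference of -0.66 (adjusted p = 0.0601), and its 3′ end overlaps the antisense gene Gm45774. Mt1, a second metallothionein gene, averaged 3955 CPM against 4615 CPM, a difference of -0.24 (adjusted p = 0.621). Slc39a1, which encodes a plasma membrane zinc importer, averaged 138 ± 15.2 CPM against 228 ± 16.95 CPM (SD, n = 3), a difference of -0.73 (adjusted p = 0.133). Piezo1, a mechanosensitive channel gene (-1.06, adjusted p = 0.0601, and 0.00647 in DESeq2), and Ctu2, a tRNA thiolation gene (-0.97, adjusted p = 0.133, and 0.044 in DESeq2), overlap at their 3′ ends on opposite strands, and the strand setting of the counting is not given in the sources used here, so their reads cannot be told apart. The rest were Zfp36l2 (-1.55), which encodes an mRNA decay factor, Marveld1 (-1.35), Fam210b (-1.03) and Arpc5 (-0.94), a subunit of the actin-nucleating Arp2/3 complex. Their adjusted p lay between 0.127 and 0.133, with Zfp36l2 (0.0462), Fam210b (0.0379) and Arpc5 (0.0435) past the threshold in DESeq2.

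Gene lists are described by how many measured members were higher or lower and by the median log2 difference, set beside -0.05 for all genes. Of 35 lists 34 had a measured member. No list held a gene that rose, and 5 held 1 of the 3 genes that fell. Of the 29 lists with 5 or more measured members, 19 had a median below that of all genes, and the medians ran from -0.69 to 0.38.

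Among 22 measured genes for fibrinogen and coagulation factors 16 were lower and 6 higher, 1 (Fga) passed, and the median was -0.26. Of these 22, 7 (31.8%) lay below every PBS library, beside 9.6% of all genes. Their summed level was 5542 to 6003 CPM under TTR-1186 and 7446 to 7675 CPM under PBS. Both the count and the sum include Ahsg, a gene also in the hepatocyte list. It averaged 2410 CPM against 3261 CPM and lay below every PBS library. Besides the fibrinogen chains, Serpinf2, the plasmin inhibitor, was at 90.7, 89.0 and 76.1 CPM against 134, 125 and 128 CPM, a difference of -0.59 (adjusted p = 0.190). F2, prothrombin, averaged 228 CPM against 299 CPM (-0.39, adjusted p = 0.370). Factors on the other side included F10 (0.20, adjusted p = 0.786), Plg (plasminogen, 0.12, adjusted p = 0.877) and F12 (0.03, adjusted p = 0.971).

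Of 29 measured acute phase protein genes 22 were lower, 7 were higher, none passed, and the median was -0.23. Hp, haptoglobin, which binds free haemoglobin, was at 3362, 4372 and 3263 CPM against 5431, 4772 and 5166 CPM, a difference of -0.49 (adjusted p = 0.267). Serpina3n differed by -0.58 (adjusted p = 0.411) and Apcs, serum amyloid P, by -0.34 (adjusted p = 0.576). Saa1 and Saa2, the serum amyloid A genes, overlapped between groups, at 437 to 707 CPM against 651 to 770 CPM for Saa1. Lcn2 (0.16), Crp (0.24) and Orm3 (0.21) lay on the higher side. Of 20 measured complement genes 13 were lower and the median was -0.09, with C4b at -0.42 (adjusted p = 0.333) and Mbl1, mannose-binding lectin, at 0.91 (17.6 ± 2.95 CPM against 9.18 ± 3.44 CPM, SD, n = 3, adjusted p = 0.384).

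The list of NF-kB targets, chemokines and adhesion molecules had the lowest median, -0.69 (-0.64 without the libraries that stood apart). Of its 26 genes 12 had values, 9 lower and 3 higher, and 6 of the 12 lay below every PBS library, beside 9.6% of all genes. None passed. Icam1, a leukocyte adhesion molecule whose 3′ end overlaps the antisense gene Gm47079, was at 28.5, 37.2 and 32.1 CPM against 46.0, 56.0 and 65.3 CPM, a difference of -0.75 (adjusted p = 0.324). Sod2, mitochondrial superoxide dismutase, was at 57.6, 23.7 and 44.1 CPM against 83.8, 80.6 and 69.9 CPM, a difference of -0.97 (-0.70 without the libraries that stood apart, adjusted p = 0.247). The chemokine gene Ccl2 averaged 39.5 CPM against 64.6 CPM (-0.74, adjusted p = 0.423). Tnfaip2 (-1.44) and Vcam1 (-1.38) were near the low end of the measured range, under 5 CPM in all TTR-1186 libraries. Nfkbia, the NF-kB inhibitor, overlapped between groups (-0.64, adjusted p = 0.401), as did the factor genes Nfkb1 (0.15), Nfkb2 (-0.20) and Relb (0.24, or 0.52 without the libraries that stood apart). Of the 3 Kupffer cell and macrophage genes with values all were lower: Cd14, which hepatocytes can also express, at -1.38 (-1.16 without the libraries that stood apart, adjusted p = 0.333), Csf1r at -0.11 and Cd68 at -0.03. Their summed level was 91.8 to 105 CPM against 95.1 to 128 CPM, and their part in the NF-kB list was not tested.

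Of 15 measured genes of IL-6 and STAT3 signalling 14 were lower and 1 higher, with a median of -0.32. Without the libraries that stood apart 10 were lower and 5 higher, with a median of -0.34. Jak1, the kinase bound to the IL-6 receptor chain gp130, was at 199, 189 and 197 CPM against 297, 310 and 256 CPM, a difference of -0.55 (-0.83 to -0.28, adjusted p = 0.133). The 3′ end of Jak1 overlaps that of Raver2 on the other strand. The acute phase transcription factors Cebpb (-0.63, adjusted p = 0.233) and Cebpd (-0.90, adjusted p = 0.324) also lay below every PBS library. Stat3 itself was at 63.8 to 79.2 CPM against 70.1 to 114 CPM (-0.32, adjusted p = 0.572). Il6st, which encodes gp130, was the single higher gene, at 70.2, 70.6 and 81.2 CPM against 51.9, 64.1 and 51.9 CPM (0.40, adjusted p = 0.527).

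Of 17 measured FOXO and fasting targets 11 were lower and 6 higher, 1 (Igfbp1) passed, 6 of the 17 lay below every PBS library, beside 9.6% of all genes, and the median was -0.21. Ddit4, a stress-induced inhibitor of mTORC1, was at 30.5, 28.2 and 30.2 CPM against 42.2, 61.9 and 55.4 CPM, a difference of -0.81 (adjusted p = 0.236). Bcl6, a repressor induced in fasting, differed by -0.88 (adjusted p = 0.239), Foxo3 by -0.56 (adjusted p = 0.379) and Foxo1 by -0.33 (adjusted p = 0.527). Irs2 (-0.16, or -0.39 without the libraries that stood apart), an insulin receptor substrate, and Insr (-0.21) overlapped between groups. Apoc3, an inhibitor of lipoprotein lipase, lay on the higher side (0.46, adjusted p = 0.368). The lipogenic genes that insulin induces were divided, 8 higher and 10 lower of 18, with a median of -0.05 (0.01 without the libraries that stood apart). Of 8 measured genes of the IGF system 6 were lower and 2 higher, and 1 (Igfbp1) passed. The median was -0.34 (-0.16 without the libraries that stood apart). Igf1 averaged 191 CPM against 206 CPM (-0.11, adjusted p = 0.898), and Igfbp4 differed by -0.14 (adjusted p = 0.855).

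Rbp4, the retinol-binding partner of transthyretin, was at 891, 977 and 887 CPM under TTR-1186 and at 842, 875 and 905 CPM under PBS. The groups overlapped, and the difference was 0.07 (-0.17 to 0.31, adjusted p = 0.892). Serpina7, thyroxine-binding globulin, averaged 46.9 CPM against 66.8 CPM (-0.50, adjusted p = 0.574). The list of retinol and thyroid hormone genes also holds transporters, a receptor (Thra) and genes that are no carriers, such as Thrsp. With Ttr counted, 9 of its 10 measured genes were lower and 1 (Ttr) passed, with a median of -0.27 (-0.32 without the libraries that stood apart).

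The RNAi and microRNA machinery list had 12 higher and 11 lower genes of 23 measured, with a median of 0.04 (-0.07 without the libraries that stood apart) and none past the threshold. Ago2, the Argonaute protein that cleaves the target, was at 113, 131 and 113 CPM against 115, 123 and 149 CPM, a difference of -0.11 (-0.54 to 0.31, adjusted p = 0.906), and its 3′ end overlaps Chrac1. Dgcr8, the microprocessor partner of Drosha, was the member with the smallest p (0.77, adjusted p = 0.379), and its 3′ end overlaps Trmt2a. Of 40 measured interferon-stimulated genes and RNA sensors 27 were lower and 13 higher, none passed, and the median was -0.09 (-0.29 without the libraries that stood apart). Isg15, a ubiquitin-like protein induced by interferon, was at 15.4, 5.24 and 13.3 CPM against 32.1, 50.2 and 11.3 CPM (-1.28, adjusted p = 0.361), and PBS replicate 3 lay within the treated range. Parp12 differed by -1.12 (adjusted p = 0.260) and Ifi35 by 0.55 (adjusted p = 0.382).

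In the list of receptor uptake, endosomes and lysosomes 22 of 32 measured genes were lower and 10 higher, with a median of -0.08. Asgr1, the main subunit of the asialoglycoprotein receptor of hepatocytes, was at 47.3, 36.3 and 38.4 CPM against 70.6, 78.6 and 59.3 CPM (-0.76, adjusted p = 0.370). Asgr2, the other subunit, averaged 13.7 ± 3.57 CPM against 13.6 ± 0.739 CPM (SD, n = 3), a difference of -0.02 whose sign turned under other scalings. Of 34 secretory pathway genes 25 were lower and 9 higher, with a median of -0.19, and Sec61a1, the pore of the translocon, differed by -0.65 (-0.89 without the libraries that stood apart, adjusted p = 0.222) with a 3′ end that overlaps Gm44170. Of 23 cell cycle genes 17 were lower and 6 higher, with a median of -0.25 (-0.16 without the libraries that stood apart).

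The 43 measured hepatocyte genes were divided, 25 higher and 18 lower, with a median of 0.07 and only Ttr past the threshold. Alb, albumin, was at 4701, 3952 and 4210 CPM against 5809, 5353 and 4384 CPM (-0.27, adjusted p = 0.537). Ahsg, fetuin-A, differed by -0.44 (adjusted p = 0.233) and lay below every PBS library. Of the 13 mRNAs of the mitochondrial genome 12 were higher, with a median of 0.15. Above every PBS library lay 2 of the 13 (15.4%), beside 3.92% of all genes. The summed level of the 13 overlapped, at 18396 to 23564 CPM against 16380 to 20577 CPM, and was lowest in the library of each group that stood apart. Of those 2, mt-Co1 was at 4788, 3390 and 5151 CPM against 3066, 3184 and 3164 CPM (0.48, adjusted p = 0.407). It overlaps the tRNA gene mt-Ts1 on the other strand. The mitochondrial ribosomal RNAs mt-Rnr1 (0.64) and mt-Rnr2 (0.38, or 0.12 without both libraries that stood apart) differed by more within groups than between them, and both differences turned negative without PBS replicate 3. Of 80 cytosolic ribosomal protein genes 51 were lower and 29 higher, with a median of -0.10 and none past the threshold. Below every PBS library lay 17 of the 80 (21.25%), beside 9.6% of all genes. Above every PBS library lay 5 (6.25%), beside 3.92% of all genes. Rpl22 (-0.59, adjusted p = 0.197) was among the former, and Rpl6 (0.44, adjusted p = 0.233) among the latter. Over 10 further lists of metabolism, stress and housekeeping 175 of 366 measured members were higher, none passed, and medians lay between -0.20 and 0.08 (-0.25 and 0.03 without the libraries that stood apart).

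**Figure D4:**
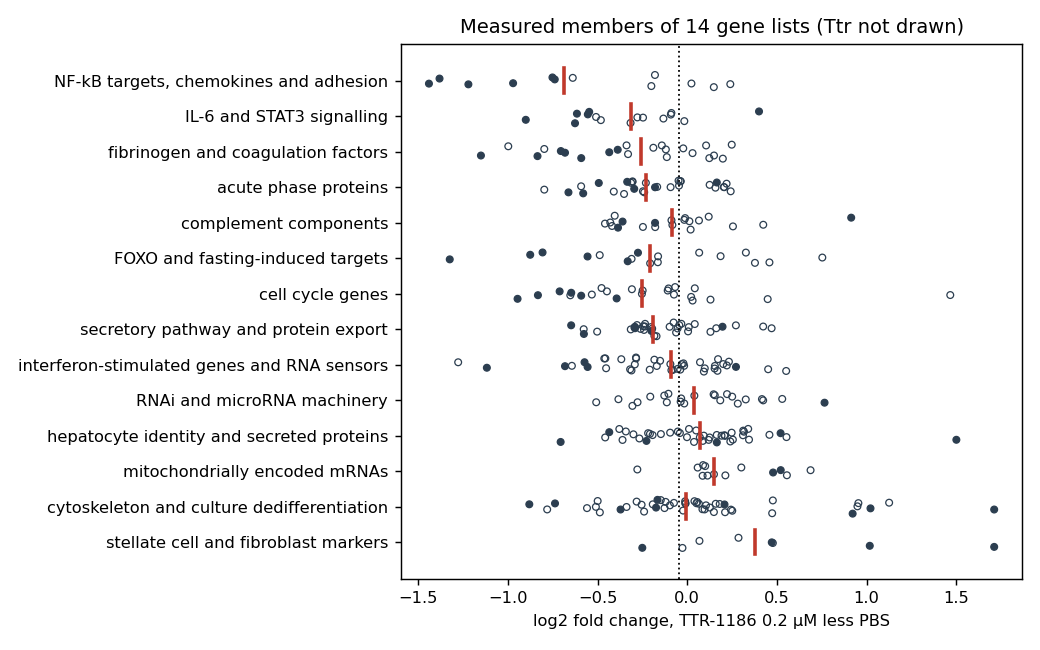
Each circle is a measured gene of 1 of 14 lists (y), placed by its log2 fold change of TTR-1186 0.2 µM less PBS (x), filled where the groups of 3 libraries do not overlap. Red bars are list medians, from -0.69 for NF-kB targets to 0.38 for stellate cell markers, and the dotted line is the median of all genes, -0.05. Vertical scatter within a list has no meaning.

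Set directly against the other agents at 0.2 µM, TTR-1186 gave no gene past the threshold by limma. Against TTR-1236 0 genes passed an adjusted p of 0.05 (0%), 685 had an unadjusted p under 0.05 (7.09%), and edgeR called 0. Against Reference 4 the counts were 0 (0%), 475 (4.92%) and 0. Without Reference 4 replicate 3 that comparison gave 2 genes, Cldn4, a tight junction gene, and Lgals1, galectin-1.

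Igfbp1 averaged 193 ± 9.46 CPM under TTR-1236, 157 ± 39.2 CPM under TTR-1186 and 144 ± 9.59 CPM under Reference 4 (SD, n = 3 each). The difference of TTR-1186 from TTR-1236 was -0.33 (-0.70 to 0.03, adjusted p = 0.721), and from Reference 4 it was 0.09 (-0.28 to 0.46, adjusted p = 0.994). Both intervals include 0. Fga averaged 161 ± 29.3, 107 ± 12.01 and 119 ± 17.2 CPM (SD, n = 3 each), so the TTR-1186 libraries, at 98.9 to 120.4 CPM, lay below all 3 TTR-1236 libraries, at 129.2 to 186.8 CPM. The difference from TTR-1236 was -0.58 (-0.92 to -0.24, adjusted p = 0.558) and that from Reference 4 was -0.16 (-0.49 to 0.18, adjusted p = 0.983).

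Ttr averaged 8.58 ± 2.90 CPM under TTR-1236 and 13.3 ± 7.17 CPM under Reference 4 (SD, n = 3), and TTR-1186 differed by -0.30 (-1.17 to 0.57, adjusted p = 0.924) and -0.76 (-1.63 to 0.11, adjusted p = 0.948). At 2 µM, TTR-1186 libraries held 11.02 ± 3.78 CPM of Ttr, 174 ± 29.5 CPM of Igfbp1 and 158 ± 17.6 CPM of Fga (SD, n = 3), beside 7.09, 157 and 107 CPM at 0.2 µM. Jak1 averaged 180 CPM under TTR-1236, 195 CPM under TTR-1186 and 184 CPM under Reference 4 at 0.2 µM, beside 288 CPM in the PBS libraries that all 3 agents share as controls.

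**Figure D5:**
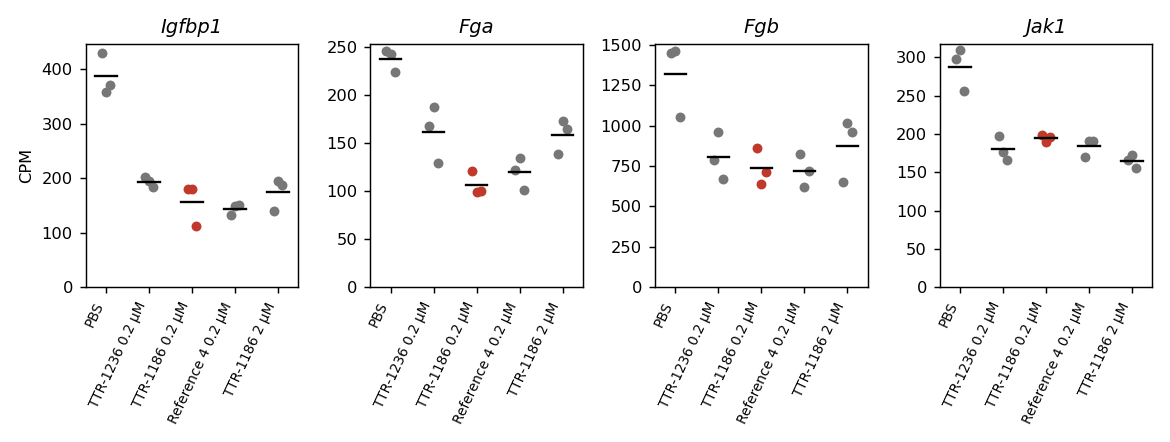
CPM (y, from 0) of Igfbp1, Fga, Fgb and Jak1 in each library of PBS, of the 3 agents at 0.2 µM and of TTR-1186 at 2 µM (x), with TTR-1186 0.2 µM in red and bars at the means of 3 libraries. For Fga the red points, at 98.9 to 120.4 CPM, lie below those of TTR-1236, at 129.2 to 186.8 CPM, a difference that did not pass the adjusted p (0.558).

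The precision of the comparison differs with the level of a gene. The median 95% interval reached 0.54 to either side on the log2 scale for the 7556 genes with at least 10 CPM over the 6 libraries, and 0.91 for the rest. Among the genes with at least 10 CPM 59 were at least 2-fold higher and 49 at least 2-fold lower, of which 3 passed the threshold.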

How the data were processed

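The 6 libraries compared are QuantSeq 3′ mRNA-seq of primary mouse hepatocytes, with groups read from agent and dose in each title. Tools named in the submitters' processing notes are cutadapt 1.15, HISAT2 2.1.0 and featureCounts, and the build is mm10. Their settings, the annotation release and any low-expression filter are not stated there. The authors deposited CPM, and every file adds up to 1000000 over one set of 9657 genes. All values (100%) were whole reads within 0.001 reads, which gave back the counts; totals were 14158740 to 37410773 reads over the 21 libraries and cover only the genes in the files. Of the identifiers 9652 matched a symbol in GENCODE annotation of GRCm38.

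Since the unit is CPM, limma 3.58.1 (R 4.3.3) was fitted on log2(CPM + 1) with a trended and robust variance prior to all 21 libraries in 7 group means, with no covariate, no filter, and Benjamini-Hochberg adjustment over all genes at 0.05. Intervals are at 95%. On the recovered reads edgeR 4.0.16 with TMM factors called 4 genes and DESeq2 1.42.0 called 21 against PBS. Other alternatives were DESeq2 size factors in edgeR, TMM-rescaled CPM, a pseudocount of 0.5 or 5, only genes of at least 10 CPM, the 6 libraries alone, a block for the replicate number, omission of single libraries, and, chosen after seeing the data, the libraries that stood apart left out together. The scripts were tested on simulated data.

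The naming rule took Ttr, the genes past the threshold and a few fixed genes. It also took 12 rises and 12 falls with the smallest p among genes of at least 10 CPM whose groups do not overlap. Of these candidates 1 predicted gene or pseudogene was passed over. Members of each list with the smallest p were taken as well, but only some of them are named in the text. Other list members are named to show the range of their list and were chosen after their values were seen. The comparison, members and gene lists were chosen with earlier results of these data known. Promoters are from RefSeq.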

Additional observations from a re-analysis of the deposited data

How the results depend on the processing

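Ttr kept its direction and its call under every alternative run, with a log2 fold change of -8.49 to -7.82 over the libraries left out in turn. Against PBS, 3 genes passed the threshold. The count was 5 in edgeR with DESeq2 size factors (2 higher, 3 lower), 21 in DESeq2 (9 higher, 12 lower), 5 on TMM-rescaled CPM (2 higher, 3 lower), 9 with a minimum mean of 10 CPM (3 higher, 6 lower) and 1 with only the 6 libraries compared. With 1 library left out in turn it ran from 3 to 41, and 41 (22 higher, 19 lower) came without PBS replicate 3; the cause was not tested. Without both libraries that stood apart, an alternative chosen after seeing the data, it was 4. The count against Reference 4 ran from 0 to 2 with 1 library left out, and against TTR-1236 it was 0 throughout.

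Replicate numbers are shared between groups in the labels. Same-numbered TTR-1186 and PBS libraries had correlations of deviations of 0.154, -0.362 and -0.392, and TTR-1186 replicate 2 correlated best with PBS replicate 3 (0.511). Both of the latter stood apart in their groups and carry different numbers. These correlations therefore cannot show whether the numbers pair the libraries in a smaller way. For Ttr, replicate 3 was the lowest under each agent at 0.2 µM, but the highest under PBS. Whether this stems from a pairing was not tested. With the replicate block 3 genes passed against PBS and 0 against each other agent.

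The naming rule took list members that are not named in the text, and they are counted here. Of 1816 alternative values for 114 genes of the rule, 1761 kept direction and side of the threshold. A further 42 newly passed, 2 no longer passed and 11 changed sign. Without PBS replicate 3, mt-Rnr1 moved to -0.08, mt-Rnr2 to -0.23 and Apob to -0.16, and their highest values with 1 library left out were 1.20, 0.73 and 0.71, all without TTR-1186 replicate 2. Alas2 ran from -0.21 without PBS replicate 1 to 0.51 without PBS replicate 3. Asgr2 was 0.06 in edgeR with TMM, 0.08 in edgeR with DESeq2 size factors and in DESeq2, 0.03 on TMM-rescaled CPM, 0.19 without TTR-1186 replicate 2, 0.02 without PBS replicate 1 and 0.17 without both libraries that stood apart. TMM factors moved the median of all genes by 0.0585 (log2). Of 464 alternative medians for 29 lists 412 stayed within the spread and 52 moved. The file of each library holds only genes above some level of expression, so a gene without values may be low and not absent.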
